A study of Mus musculus with 8 samples.

Results

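The genes described here build the MHC class I complex and supply it with peptides: the light chain B2m, the heavy chains H2-K1 and H2-D1, the peptide transporter Tap1 and Tap2, the loading factor Tapbp, the inducible proteasome subunits Psmb8, Psmb9 and Psmb10, and the proteasome activator subunit Psme1. They were taken as all probe sets that the platform annotation assigns to one of these 10 symbols. This gave 21 of the 12422 probe sets tested, of which 18 carried a single symbol and are described gene by gene. All 10 genes had at least 1 such probe set. The other 3 probe sets carried several symbols and are given apart.

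RNA of whole pancreas from mice aged 3 weeks was measured on 8 Affymetrix arrays, 2 in each of 4 groups. BDC2.5/NOD.scid mice carry the BDC2.5 transgene, the rearranged T cell receptor of an islet-reactive CD4 T cell clone, on the NOD.scid background. NOD.scid mice carry the scid mutation of Prkdc without the transgene and form no mature T or B cells of their own. BDC2.5/NOD mice carry the transgene on the NOD background, where other lymphocytes also form. NOD mice, which develop autoimmune diabetes, carry neither the transgene nor scid. All groups share the NOD strain and with it the Kd and Db class I alleles; the strain behind each probe set's design was not checked. Per the labels, each group had 2 RNA isolations of 6 animals, which were pooled, so an array stands for pooled animals. The labels do not say whether a group's 2 arrays hold different pools, and the p-values measure only how far these arrays spread, which may be technical error.

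A class I molecule carries peptides from inside the cell to its surface, where CD8 T cells and natural killer cells read it. Proteins are cut by the proteasome, the TAP transporter moves the peptides into the endoplasmic reticulum, and tapasin (Tapbp) holds the empty heavy chain and B2m at the transporter until a peptide fits. Interferon gamma is the classical inducer of the set, and it also replaces the catalytic proteasome subunits with inducible ones. Islets in human autoimmune diabetes are known to carry more class I than normal islets.

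The deposited log2 values of paired arrays correlated at Pearson r of 0.9912 to 0.9961 across probe sets, and arrays of different groups at 0.9773 to 0.9902. The tissue label fitted its markers: the 9 measured acinar marker genes averaged 12.70 to 12.79 on every array, against a median of 4.27 for all probe sets. On BDC2.5/NOD.scid replicate 2, NOD.scid replicate 1 and NOD replicate 1, the middle actin control probe set read above 8.5, and on the other 5 arrays below it. The BDC2.5/NOD group has no such array. Values within the actin levels are given beside some of the results.

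In BDC2.5/NOD.scid pancreas both chains of the class I molecule, the transporter subunit Tap1 and the inducible proteasome subunits Psmb8 and Psmb9 were higher than in NOD.scid pancreas, by 2.11-fold to 7.18-fold on the probe sets that passed, and Tapbp by 1.29-fold. With limma and Benjamini-Hochberg adjustment over all probe sets (threshold 0.05), 10 of the 18 probe sets rose and 1 fell, against 2.37% of all probe sets that rose and 4.03% that fell. The probe sets that rose belonged to 7 of the 10 genes, and the one that fell to Psmb10. By the brightest probe set of each gene, the rule used for the lists below, 6 of the 10 rose and 1 fell. The brightest Tap1 probe set did not pass. The H2-K1 and H2-D1 probe sets that rose, here and in NOD, hold probes shared within a gene family. They may read the same transcripts, yet the counts and medians take them as separate. The median log2 fold change of the 18 was 0.76, against -0.0045 over all 12422. In BDC2.5/NOD pancreas, set against NOD, the changes were smaller: 6 probe sets of 4 genes rose and 1 fell, against 3.91% and 4.06% of all probe sets, with a median of 0.23 against 0.034. The count in NOD rests on few arrays: without BDC2.5/NOD replicate 2 it was 1, and without BDC2.5/NOD replicate 1 or NOD replicate 1 it was 3, against 7 with all arrays. The 2 transgene comparisons share no arrays.

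**Figure D1:**
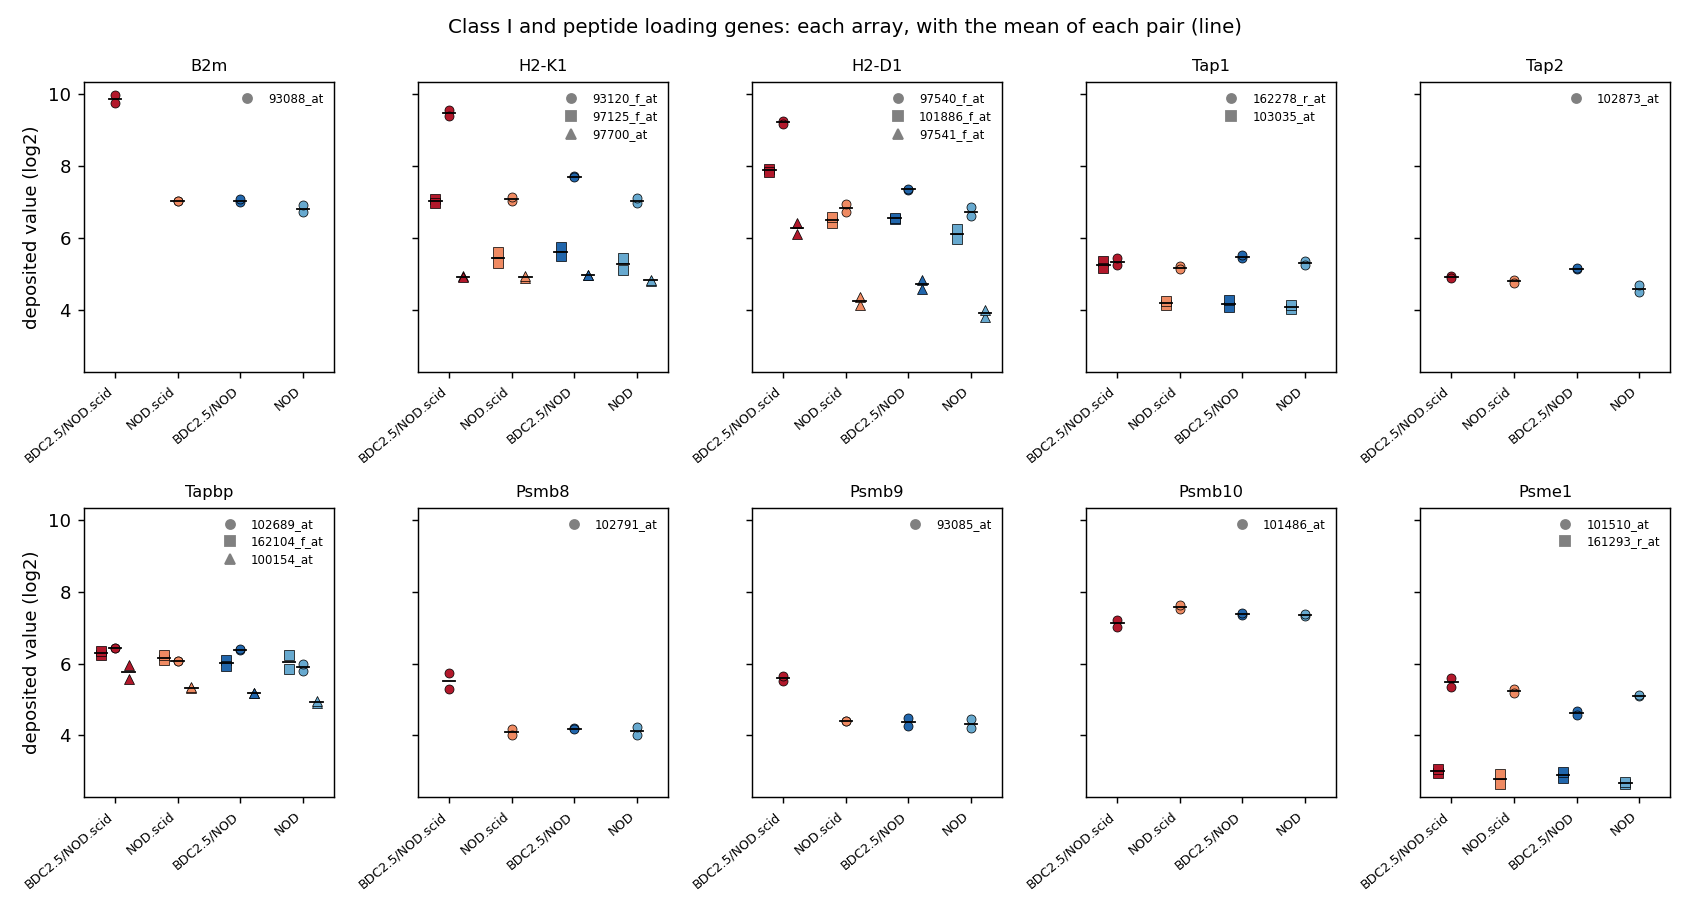
Deposited log2 value on each of the 8 arrays for the 18 single-symbol probe sets, 1 panel per gene. Points are arrays, lines the mean of each pair, marker shapes the probe sets of a gene; in B2m the 2 BDC2.5/NOD.scid arrays at 9.97 and 9.77 sit above the other 6, which lie between 6.71 and 7.08. Levels of different probe sets cannot be set against each other.

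B2m, the invariant light chain that every classical class I molecule needs to fold and reach the surface, read 9.97 and 9.77 in BDC2.5/NOD.scid pancreas, against 7.02 and 7.03 in NOD.scid. It read 6.998 and 7.082 in BDC2.5/NOD pancreas, against 6.71 and 6.92 in NOD. The BDC2.5/NOD.scid pair stood apart, the NOD.scid and BDC2.5/NOD arrays overlapped, and the NOD arrays were the lowest. The transgene in NOD.scid raised B2m by 2.84 on the log2 scale (SE 0.0996, 7.18-fold, adjusted p = 3.85e-09), the 9th largest rise among the 12422 probe sets. The difference in NOD, 0.22, did not pass (adjusted p = 0.200). Between the 2 transgenic groups, BDC2.5/NOD.scid exceeded BDC2.5/NOD by 2.83 (7.12-fold, adjusted p = 9.91e-09), and in this comparison no other probe set rose further. In whole tissue, more cells of a type with much of a transcript and more transcript per cell cannot be told apart. The low-actin arrays alone gave B2m a rise of 2.94 with the transgene in NOD.scid, and the high-actin arrays alone 2.75. In NOD the low-actin arrays alone, 1 of them from NOD, gave 0.12.

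The promoter of B2m is shown because the gene carries the largest rise. It is the stretch of 250 bases before the start annotated by RefSeq on GRCm38.p6, chr2:122147437-122147686 on the plus strand; the reference is C57BL/6, not NOD. Capitals mark a match to the interferon regulatory factor motif GAAANNGAA, which starts 139 bases before the transcription start.
B2m: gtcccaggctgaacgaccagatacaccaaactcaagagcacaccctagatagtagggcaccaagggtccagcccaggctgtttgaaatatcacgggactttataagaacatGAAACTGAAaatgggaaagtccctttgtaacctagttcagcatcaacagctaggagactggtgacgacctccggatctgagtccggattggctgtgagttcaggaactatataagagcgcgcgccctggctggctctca

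H2-K1 encodes the K heavy chain, one of the peptide-presenting class I chains. On probe set 93120_f_at it read 9.58 and 9.39 in BDC2.5/NOD.scid pancreas, against 7.02 and 7.15 in NOD.scid. The same probe set read 7.72 and 7.69 in BDC2.5/NOD pancreas, against 6.98 and 7.10 in NOD. Both transgenic groups thus lay above their controls without overlap, BDC2.5/NOD.scid highest, BDC2.5/NOD next, and the NOD.scid and NOD arrays intermingled. The rise was 2.40 in NOD.scid (SE 0.0942, 5.28-fold, adjusted p = 9.84e-09) and 0.66 in NOD (1.58-fold, adjusted p = 0.00110; 0.60 within the low-actin arrays). A second probe set, 97125_f_at, rose by 1.59 in NOD.scid (adjusted p = 1.16e-05) and stood at 0.34 in NOD, which did not pass (adjusted p = 0.158). The third, 97700_at, was flat, with 4.80 to 4.96 on all 8 arrays and a difference of 0.01 in NOD.scid (95% interval -0.19 to 0.20). Probe sets of one gene disagreed here, and the 2 that rose have the suffix that Affymetrix gives to probes shared within a gene family, so part of their signal may come from other class I genes.

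H2-D1, the D heavy chain, was measured by 3 probe sets, all of that family-shared kind. Probe set 97540_f_at read 9.27 and 9.17 in BDC2.5/NOD.scid pancreas, against 6.73 and 6.94 in NOD.scid. Its values were 7.34 and 7.37 in BDC2.5/NOD pancreas, against 6.61 and 6.86 in NOD. As for H2-K1, the BDC2.5/NOD.scid arrays were highest and the BDC2.5/NOD arrays lay between them and both control groups. The rise was 2.38 in NOD.scid (SE 0.106, 5.22-fold, adjusted p = 2.19e-08) and 0.62 in NOD (adjusted p = 0.00343). Probe sets 101886_f_at and 97541_f_at rose by 1.38 and 2.02 in NOD.scid and by 0.44 and 0.81 in NOD, all past the threshold. Without BDC2.5/NOD replicate 2 none of the 3 kept its call in NOD (adjusted p of 0.0521 to 0.154), and 101886_f_at also lost it without BDC2.5/NOD replicate 1 or NOD replicate 1 (0.145 and 0.191). Within the low-actin and the high-actin arrays, 97540_f_at differed by 2.33 and 2.44 in NOD.scid; within the low-actin arrays in NOD the difference was 0.50.

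The 3 probe sets annotated to several symbols, among them a member, behaved unlike each other. The one with 10 symbols, 102161_f_at, read 6.73 and 6.20 in BDC2.5/NOD.scid pancreas, against 4.88 and 5.39 in NOD.scid, a rise of 1.33 (adjusted p = 0.000620). In BDC2.5/NOD pancreas it read 5.11 and 5.27, against 4.65 and 4.77 in NOD, and the difference did not pass (adjusted p = 0.124). The other two, with 5 and 4 symbols, passed in no comparison.

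The promoters of the heavy chains are shown because at least 1 family-shared probe set annotated to each gene rose in both transgenic groups. They are chr17:34000348-34000597 on the minus strand and chr17:35262844-35263093 on the plus strand of GRCm38.p6, on either side of the class II genes, with capitals on the match to the NF-kB motif GGGNNTTCC. It starts 111 bases before the start of H2-K1 and 171 bases before that of H2-D1, within a run of 47 bases that both windows share letter for letter. The reference held 2 windows for H2-K1, of which the first was used, so its distances depend on that choice of start.
H2-K1: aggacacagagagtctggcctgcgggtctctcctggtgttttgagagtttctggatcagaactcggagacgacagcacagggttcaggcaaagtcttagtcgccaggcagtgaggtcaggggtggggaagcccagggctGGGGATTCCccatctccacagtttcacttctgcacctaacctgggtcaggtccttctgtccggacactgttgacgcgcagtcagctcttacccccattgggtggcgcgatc
H2-D1: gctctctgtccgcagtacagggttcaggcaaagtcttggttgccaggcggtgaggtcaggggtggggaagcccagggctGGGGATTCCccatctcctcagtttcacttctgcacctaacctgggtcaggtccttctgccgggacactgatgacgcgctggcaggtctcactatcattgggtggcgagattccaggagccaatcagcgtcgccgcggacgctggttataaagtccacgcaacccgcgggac

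Tap1 and Tap2 form the transporter that carries peptides into the endoplasmic reticulum, and their values went apart. Tap1 on probe set 103035_at read 5.37 and 5.15 in BDC2.5/NOD.scid pancreas, against 4.12 and 4.24 in NOD.scid. It read 4.08 and 4.25 in BDC2.5/NOD pancreas, against 4.02 and 4.11 in NOD, where the arrays overlapped. The rise in NOD.scid was 1.08 (SE 0.112, 2.11-fold, adjusted p = 7.03e-05), and the difference in NOD was 0.10 (adjusted p = 0.647). A second Tap1 probe set, 162278_r_at, whose suffix means that its probes were picked by relaxed rules, spanned 5.12 to 5.51 and passed in no comparison. Its difference in NOD.scid was 0.17, with a 95% interval of -0.05 to 0.39. The Tap1 call thus rests on 1 of 2 probe sets, the dimmer one.

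Tap2 read 4.95 and 4.89 in BDC2.5/NOD.scid pancreas, against 4.82 and 4.75 in NOD.scid, a difference of 0.13 (95% interval -0.08 to 0.35, adjusted p = 0.579). It read 5.12 and 5.15 in BDC2.5/NOD pancreas, against 4.50 and 4.68 in NOD, a rise of 0.55 (SE 0.0990, adjusted p = 0.00481). Both BDC2.5/NOD arrays were thus the highest of the 8, and both NOD arrays the lowest. The 2 transgene effects on Tap2 differed by -0.42, which did not pass (adjusted p = 0.133). The rise in NOD lost its call without either BDC2.5/NOD array (adjusted p = 0.0578 and 0.0659) and without NOD replicate 1 (0.0568), with differences of 0.46 to 0.57.

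Tapbp, which bridges the transporter and the empty heavy chain, passed in both backgrounds on 1 of its 3 probe sets. Probe set 102689_at read 6.45 and 6.44 in BDC2.5/NOD.scid pancreas, against 6.07 and 6.08 in NOD.scid. In BDC2.5/NOD pancreas it read 6.38 and 6.40, against 5.81 and 5.99 in NOD. The rises were 0.37 (adjusted p = 0.0305) and 0.50 (adjusted p = 0.00553), close to each other, with a difference between them of -0.12 (95% interval -0.41 to 0.16). The first lost its call when any one array of BDC2.5/NOD.scid, NOD.scid or BDC2.5/NOD was left out (adjusted p of 0.0704 to 0.118) and with the number in the array titles as a block (adjusted p = 0.0539), and the second without either BDC2.5/NOD array or NOD replicate 1 (0.0672 to 0.0707). With only the 2 groups compared, the rise in NOD.scid did not pass either (limma, adjusted p = 0.0938). Averaged over its 3 probe sets, Tapbp stood at 0.31 in NOD.scid (adjusted p = 0.0805) and 0.24 in NOD (adjusted p = 0.149). Probe set 100154_at showed 0.44 in NOD.scid, just short of the threshold (adjusted p = 0.0515). Its difference was 0.62 within the low-actin arrays and 0.25 within the high-actin ones. Probe set 162104_f_at passed in no comparison.

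**Figure D2:**
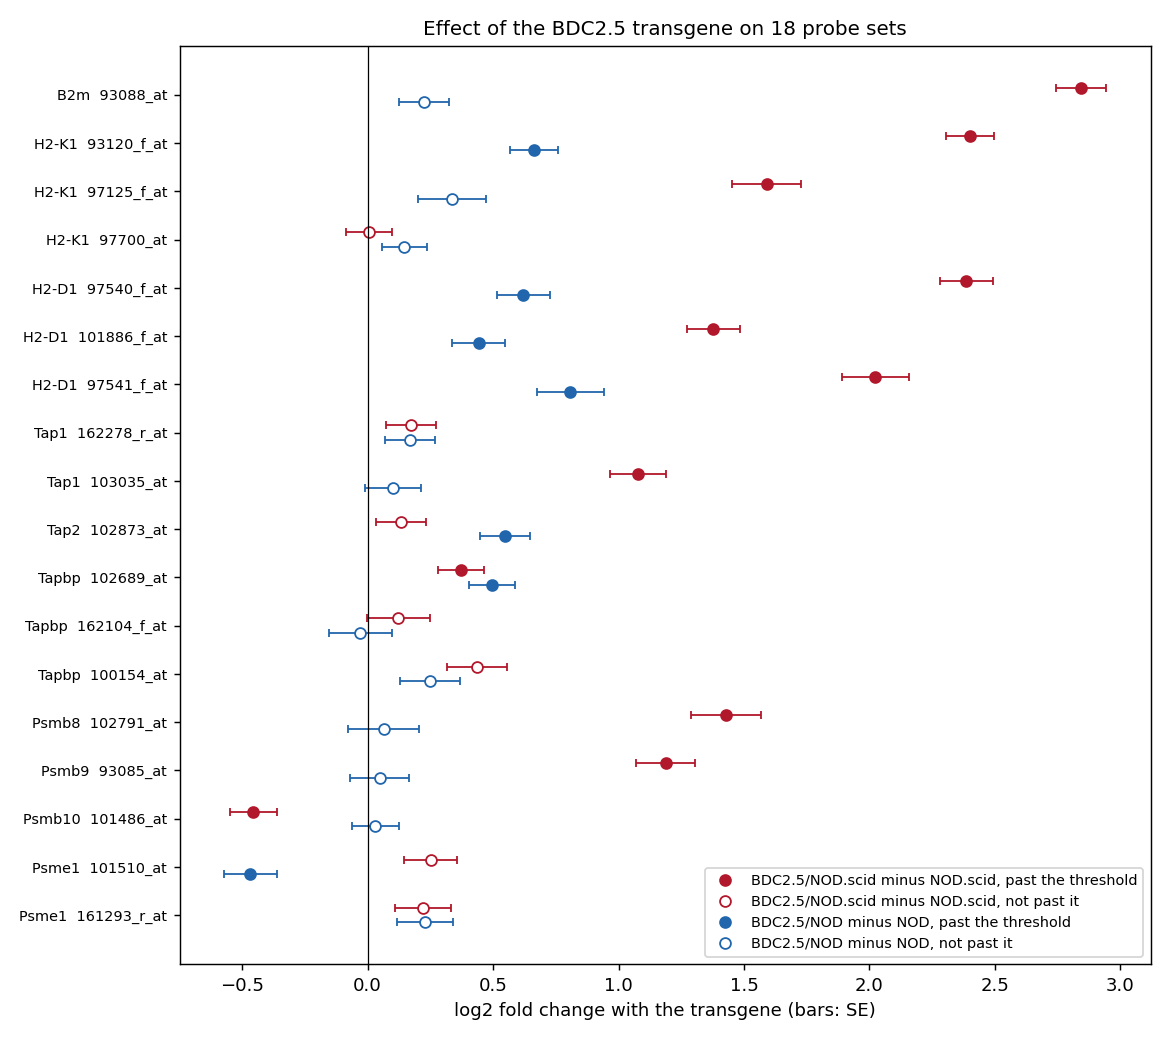
Log2 fold change with the transgene for each of the 18 probe sets, in NOD.scid (red) and in NOD (blue), with SE bars; filled points passed the threshold. The red points of B2m, H2-K1, H2-D1, Tap1, Psmb8 and Psmb9 reach 1.08 to 2.84, apart from 1 flat probe set each of H2-K1 and Tap1, while no blue point passes 0.81.

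Psmb8, Psmb9 and Psmb10 are the catalytic subunits that replace Psmb5, Psmb6 and Psmb7 in the immunoproteasome and alter the peptides it releases. Psmb8 read 5.30 and 5.75 in BDC2.5/NOD.scid pancreas, against 4.18 and 4.01 in NOD.scid. Its values in BDC2.5/NOD pancreas were 4.19 and 4.19, against 4.02 and 4.23 in NOD. Psmb9 read 5.53 and 5.65 in BDC2.5/NOD.scid pancreas, against 4.40 and 4.40 in NOD.scid, and 4.50 and 4.25 in BDC2.5/NOD pancreas, against 4.20 and 4.44 in NOD. For both genes the BDC2.5/NOD.scid arrays stood alone and the NOD arrays enclosed or overlapped the BDC2.5/NOD arrays. The rises in NOD.scid were 1.43 for Psmb8 (SE 0.140, 2.69-fold, adjusted p = 4.13e-05) and 1.19 for Psmb9 (SE 0.117, 2.28-fold, adjusted p = 4.50e-05). In NOD the differences were 0.06 (95% interval -0.24 to 0.37) and 0.05 (-0.21 to 0.30). Within the low-actin and the high-actin arrays of the NOD.scid comparison, Psmb8 rose by 1.29 and 1.57, and Psmb9 by 1.13 and 1.25.

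Psmb10 went the other way. It read 7.22 and 7.02 in BDC2.5/NOD.scid pancreas, against 7.52 and 7.63 in NOD.scid, and fell by 0.46 on the log2 scale (SE 0.0936, adjusted p = 0.0107). Its values in BDC2.5/NOD pancreas, 7.37 and 7.41, overlapped those in NOD, 7.34 and 7.37, and the difference of 0.03 did not pass (adjusted p = 0.892). The 2 BDC2.5/NOD.scid arrays were the lowest of the 8. With only BDC2.5/NOD.scid and NOD.scid compared, the fall did not pass (limma, adjusted p = 0.0681). Without BDC2.5/NOD.scid replicate 2 the fall was 0.35 in size and without NOD.scid replicate 2 it was 0.40, neither past the threshold (adjusted p = 0.0960 and 0.0730).

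Of the 14 constitutive core subunits, all measured, 3 fell and none rose with the transgene in NOD.scid (limma, 6 at an unadjusted p under 0.05). Over all probe sets 4.03% fell and 2.37% rose. The 3 that fell were Psmb3 (-0.91), the catalytic subunit Psmb6 (-0.57) and Psmb4 (-0.49). For Psmb4 this was 1 of 3 probe sets, and the other 2 stood at 0.04 and -0.09. None passed with the transgene in NOD, although all 14 lay below 0 there (lowest adjusted p = 0.0673, 6 at an unadjusted p under 0.05). Over all probe sets, 17.4% had an unadjusted p under 0.05 with the transgene in NOD.scid, and 23.6% in NOD. Psmb6, which Psmb9 replaces, read 6.35 and 6.23 in BDC2.5/NOD.scid pancreas, against 6.84 and 6.89 in NOD.scid. Psmb7, which Psmb10 replaces, read 5.26 and 5.33 in BDC2.5/NOD.scid pancreas, against 5.43 and 5.45 in NOD.scid, a difference that did not pass (-0.15, adjusted p = 0.449). Psmb5, which Psmb8 replaces, had 2 probe sets that disagreed, with differences of 0.07 and -0.80 in NOD.scid.

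**Figure D3:**
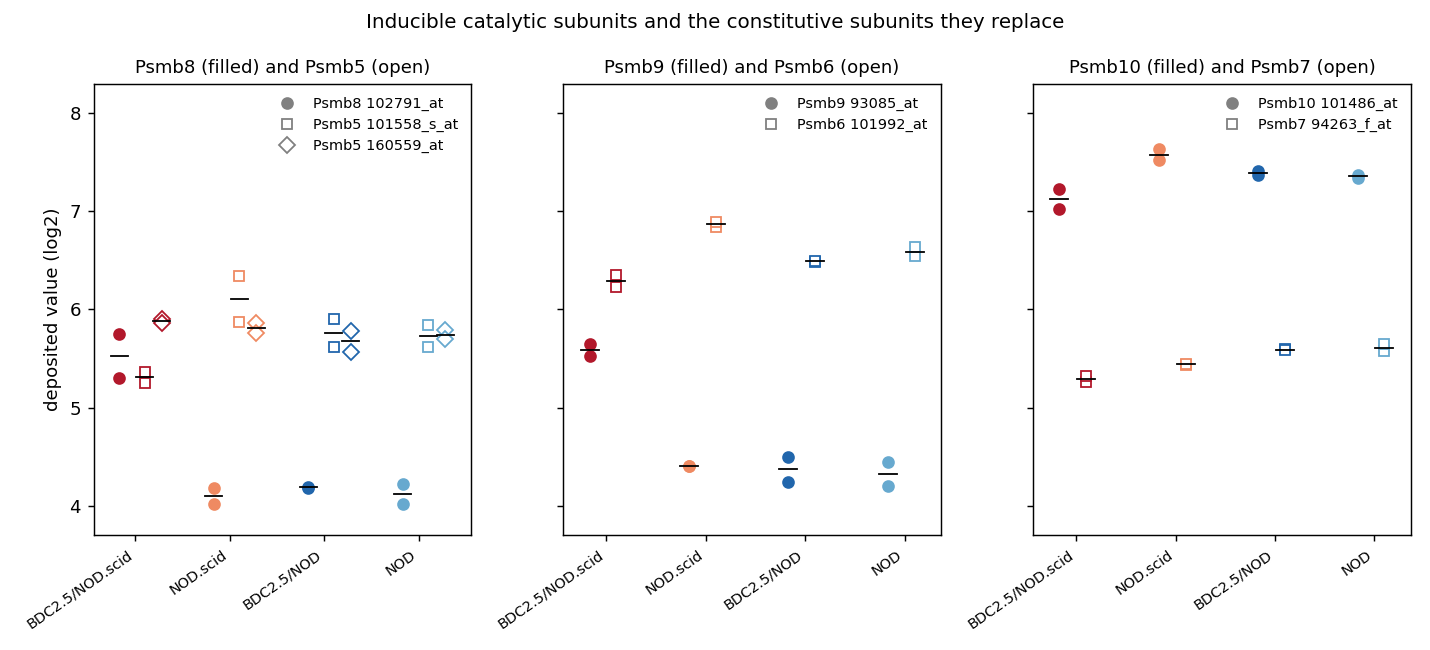
Deposited log2 values on each array for Psmb8, Psmb9 and Psmb10 (filled) and for the subunits they replace, Psmb5, Psmb6 and Psmb7 (open), with the mean of each pair as a line. Psmb8 and Psmb9 are at 5.30 to 5.75 on the BDC2.5/NOD.scid arrays and at 4.01 to 4.50 on the other 6, while Psmb10 is lowest on the BDC2.5/NOD.scid arrays; only changes within a probe set can be compared.

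Psme1 encodes a subunit of the PA28 activator, a cap that opens the proteasome. On probe set 101510_at it read 5.60 and 5.36 in BDC2.5/NOD.scid pancreas, against 5.29 and 5.17 in NOD.scid, a difference of 0.25 that did not pass (adjusted p = 0.235; 0.43 within the low-actin arrays and 0.07 within the high-actin ones). It read 4.69 and 4.58 in BDC2.5/NOD pancreas, against 5.09 and 5.12 in NOD, and fell by 0.47 (adjusted p = 0.0183). The BDC2.5/NOD arrays were the lowest of the 8 and the NOD.scid arrays lay above the NOD arrays. The fall in NOD lost its call when any one of the 4 arrays compared was left out (adjusted p of 0.0790 to 0.170). A second probe set, 161293_r_at, read 2.64 to 3.06 on all arrays, near the lowest values of the table, and passed in no comparison. Its partner subunit Psme2 had no single-symbol probe set and was not analysed here.

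Of the members, 7 lie on chromosome 17 in the GRCm38.p6 annotation, in or beside the MHC region, where Psmb9, Tap1, Psmb8 and Tap2 follow each other between H2-DMb1 and H2-Ob. B2m lies on chromosome 2, Psmb10 on chromosome 8 and Psme1 on chromosome 14. Of 12 measured genes chosen from the same region, neither members nor class II genes, none passed with the transgene in NOD.scid by limma. Their differences were -0.29 to 0.10, with 3 at an unadjusted p under 0.05. In NOD, Slc39a7, a zinc transporter, rose by 0.42 and Rps18, a ribosomal protein, fell by 0.32. That was 1 of the 12 each way, against 3.91% and 4.06% of all probe sets. Tap1 and Psmb9 start 226 bases apart and are read away from each other, so that the bases before Tap1 also hold the promoter of Psmb9. Both rose in BDC2.5/NOD.scid pancreas, by 1.08 and 1.19, and neither passed in BDC2.5/NOD.

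The stretch before Tap1 (chr17:34187306-34187555, plus strand, GRCm38.p6) is shown as this shared promoter, and that before Psmb8 (chr17:34197945-34198194, plus strand) as that of the third member that rose in this cluster. In Psmb8, capitals mark a match to the STAT motif TTCNNNGAA, which starts 97 bases before the transcription start; the Tap1 stretch holds no match to the 3 motifs marked with capitals.
Tap1: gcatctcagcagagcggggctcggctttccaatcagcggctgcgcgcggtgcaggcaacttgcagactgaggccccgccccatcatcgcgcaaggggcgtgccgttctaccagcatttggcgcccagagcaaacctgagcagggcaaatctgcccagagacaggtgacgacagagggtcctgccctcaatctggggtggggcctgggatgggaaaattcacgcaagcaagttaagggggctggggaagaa
Psmb8: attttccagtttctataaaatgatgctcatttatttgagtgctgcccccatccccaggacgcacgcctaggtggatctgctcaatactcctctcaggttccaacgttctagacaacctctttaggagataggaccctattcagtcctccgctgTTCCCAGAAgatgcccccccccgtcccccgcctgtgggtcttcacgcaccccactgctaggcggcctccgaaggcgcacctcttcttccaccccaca

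RefSeq promoter windows were at hand for 9 of the 10 members, from 250 bases before to 50 after the start, and both strands were searched. Only the first window of each gene was used. The interferon regulatory factor motif GAAANNGAA was found in 2 of the 9, B2m and Psme1, where it starts 10 bases after the transcription start on the minus strand, and in 8.57% of 27025 windows of all genes. The STAT motif TTCNNNGAA was in Psmb8 alone among the 9, and in 8.47% of all windows. The NF-kB motif GGGNNTTCC was in both heavy chain genes, and in 5.72% of all windows. The X2 motif TGACGC, part of the class I enhanceosome, was in the same 2 genes, 41 bases before the start of H2-K1 and 101 before that of H2-D1, and in 7.50% of all windows. The NF-Y motif CCAAT was in 6 of the 9 and in 37.9% of all windows. The windows of Tap1 and Psmb9 share 275 bases, and their CCAAT matches are the same bases read on opposite strands, so that one site stands in both counts. A match describes letters of the C57BL/6 reference and is no evidence of binding, and a missing match says only that these letters are absent from the window.

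**Figure D4:**
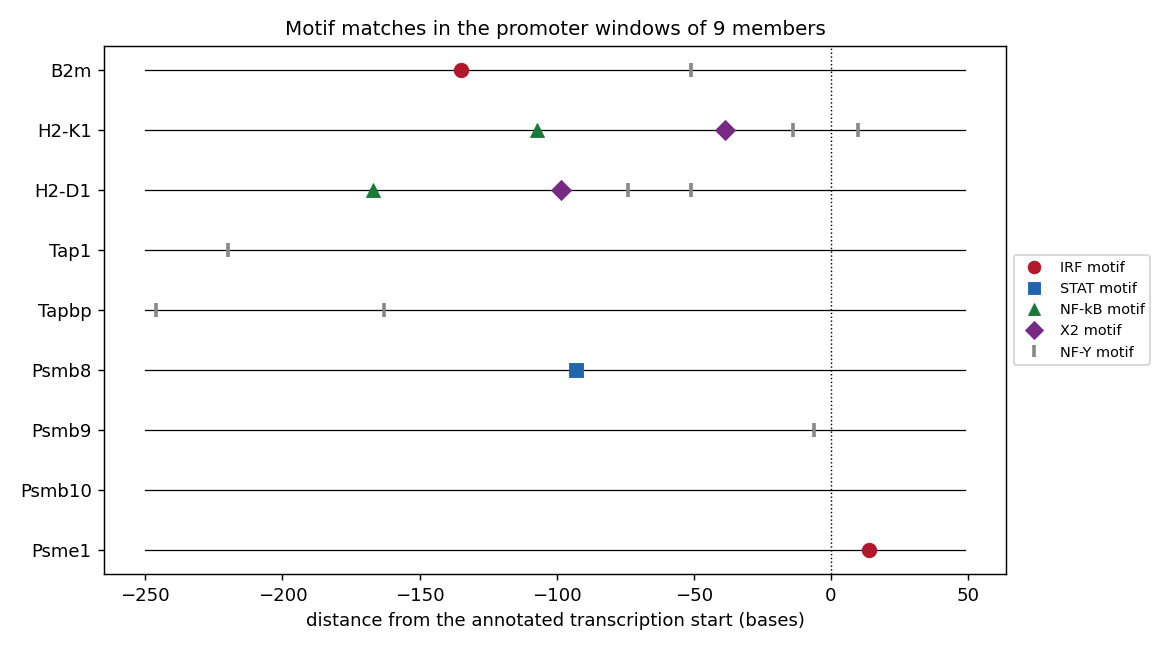
Positions of motif matches in the promoter windows of 9 members, in bases from the annotated transcription start (dotted line, negative before it); each symbol is a match on either strand. B2m carries an interferon regulatory factor match at -139, the heavy chain genes an NF-kB and an X2 match each, Psmb8 a STAT match at -97, and Psmb10 no match.

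The interaction term asked whether the transgene acted differently in NOD.scid and in NOD. It passed and was positive for 10 of the 18 probe sets and negative for none, against 2.22% and 2.5% of all probe sets. The 10 belonged to B2m, H2-K1, H2-D1, Tap1, Psmb8, Psmb9 and Psme1. By the brightest probe set of each gene, 6 of the 10 genes passed. The effect of the transgene on B2m was larger in NOD.scid than in NOD by 2.62 (SE 0.141, adjusted p = 4.05e-07), and that on H2-K1 (93120_f_at) by 1.74 (SE 0.133, adjusted p = 1.00e-05). Psmb8 differed by 1.37, Psmb9 by 1.14 and Tap1 (103035_at) by 0.97. For Psmb10 the difference of -0.49 did not pass (adjusted p = 0.0612).

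In the pair of transgenic groups, BDC2.5/NOD.scid was higher than BDC2.5/NOD for 11 of the 18 probe sets and lower for none, against 2.99% and 5.35% of all probe sets. The median was 0.97, against -0.0135 over all. The 11 belonged to 8 genes, which leaves Tap2 (-0.22, limma, adjusted p = 0.235) and Psmb10 (-0.27, adjusted p = 0.114). By the brightest probe set of each gene, 6 of the 10 genes passed. Besides B2m, H2-K1 rose by 1.78 on 93120_f_at, H2-D1 by 1.86 on 97540_f_at, Psmb8 by 1.34, Psmb9 by 1.22, Tap1 by 1.09 on 103035_at and Psme1 by 0.84 on 101510_at. Tapbp rose by 0.58 on 100154_at (adjusted p = 0.0103), a call lost without either BDC2.5/NOD array (adjusted p = 0.0932 and 0.0979) and without BDC2.5/NOD.scid replicate 1, which left a difference of 0.38 (adjusted p = 0.0702). This comparison uses the BDC2.5/NOD.scid arrays of the first one.

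Without the transgene, NOD.scid and NOD did not differ past the threshold for any of the 18 probe sets, against 0.741% of all probe sets higher in NOD.scid and 1.61% lower. At an unadjusted p under 0.05 there were 4, all by limma, and 14.2% of all probe sets. The smallest adjusted p was 0.0814, for H2-D1 on 101886_f_at, which read 6.42 and 6.59 in NOD.scid, against 5.98 and 6.24 in NOD (0.40). With the actin level as a term 3 passed, which were that probe set (adjusted p = 0.00694), H2-D1 on 97541_f_at (0.35, adjusted p = 0.0482) and Tapbp on 100154_at (0.39, adjusted p = 0.0295). The same number passed with the 3 high-actin arrays left out.

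Other genes of the class I pathway were counted from lists by their brightest single-symbol probe set. Of 13 measured class I and class I-like heavy chains, 3 rose and 1 fell with the transgene in NOD.scid, against 2.37% and 4.03% of all probe sets. H2-Q4 rose by 1.39, H2-Q5 by 0.63 and H2-Bl by 0.42, while Cd1d1, which presents lipids, fell by 0.67. All 3 that rose were read on family-shared probe sets, so part of their signal may come from other class I genes. In NOD, H2-Q5 (0.41) and H2-Q10 (0.42) rose and none fell, against 3.91% and 4.06% of all probe sets. A further 8 heavy chains were measured only by probe sets with several symbols. Of 9 other genes of peptide supply and loading, none passed in NOD.scid (limma, 1 at an unadjusted p under 0.05). Against 3.91% of all probe sets, 3 of the 9 rose in NOD. These were Pdia3, the disulfide isomerase of the loading complex (1.48, adjusted p = 0.00207), the cytosolic peptidase Thop1 (0.54) and the chaperone calreticulin, Calr (0.42). Pdia3 read 4.88 and 4.01 in BDC2.5/NOD.scid pancreas, against 4.50 and 4.66 in NOD.scid, and 5.96 and 6.35 in BDC2.5/NOD pancreas, against 4.45 and 4.89 in NOD. Its 2 transgene effects differed by -1.62 (adjusted p = 0.0147), the opposite direction to B2m. Calr read 2.52 to 3.05 on all arrays, near the low end of the table.

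Regulators of these genes were also measured. Of 24 measured interferons, receptors, kinases and transcription factors, none passed with the transgene in NOD.scid by limma. At an unadjusted p under 0.05 there were 4, against 17.4% of all probe sets. In NOD 1 rose, Irf9 (0.36), against 3.91% of all probe sets. In BDC2.5/NOD.scid pancreas, set against BDC2.5/NOD, Irf1 was higher by 0.43 (limma, adjusted p = 0.0358). Irf3, a transcription factor of the antiviral response, was lower, at -0.57 (adjusted p = 0.0125). This was 1 of 24 in each direction, against 2.99% of all probe sets that were higher and 5.35% that were lower. The smallest p-values in NOD.scid belonged to Rela (0.41, adjusted p = 0.0545), Irf1 (0.34, adjusted p = 0.123), Creb1 (0.28) and Ifngr1 (0.28). On their other probe sets Rela stood at -0.14 and Creb1 at -0.02 and 0.04. Irf1, an interferon-induced activator of class I genes, read 5.74 and 5.54 in BDC2.5/NOD.scid pancreas, against 5.16 and 5.46 in NOD.scid. Interferon gamma itself (Ifng) read 2.16 to 2.45 on all 8 arrays, where 0.314% of probe sets had a lower mean, and a change at that level may not be measurable. Nlrc5 had no single-symbol probe set and was not analysed here.

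Other interferon targets rose beside the members in NOD.scid. Of 15 measured, 8 rose and none fell, against 2.37% and 4.03% of all probe sets. Iigp1 stood at 1.57 (0.15 on its other probe set), Cxcl9 at 0.90, Gbp2 at 0.89 and Gbp3 at 0.63. Among those that did not pass were Cxcl10 (0.15), Isg15 (-0.12) and Ifit1 (0.07). The part of any interferon was not tested. None passed in NOD (limma, 3 at an unadjusted p under 0.05). Of 11 class II genes, 5 rose in NOD.scid and none passed in NOD (3 at an unadjusted p under 0.05). H2-Aa rose by 2.96, Cd74 by 2.73, H2-Eb1 by 2.03 and H2-Ab1 by 1.81.

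Part of the macrophage markers moved with the members. Of 16 genes, 8 rose and none fell with the transgene in NOD.scid, against 2.37% and 4.03% of all probe sets. The protease Ctss stood at 2.61, Lyz2 at 1.95 (0.44 on its other probe set), Cd14 at 1.13 and the complement gene C1qc at 1.08. Among those that did not pass were Itgam (-0.11), Cybb (-0.04) and Fcgr3 (0.01). C1qb did not pass on the probe set counted (0.11) and stood at 1.47 on its other one. None passed in NOD (limma, 1 at an unadjusted p under 0.05). The mean log2 level of the 16 was 5.51 and 5.39 in BDC2.5/NOD.scid pancreas, against 4.80 and 4.89 in NOD.scid, and 4.74 and 4.73 in BDC2.5/NOD pancreas, against 4.65 and 4.78 in NOD. Ctss read 6.75 and 6.82 in BDC2.5/NOD.scid pancreas, against 4.16 and 4.20 in NOD.scid, and 4.11 and 4.01 in BDC2.5/NOD pancreas, against 4.18 and 4.37 in NOD, so that the BDC2.5/NOD.scid arrays stood apart as they did for B2m. Adgre1, a surface marker of mature macrophages, stood at 0.32 and did not pass (adjusted p = 0.170). The part of macrophages in the class I values was not tested.

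Markers of other cells were counted in the same way. None of 12 T cell, 8 dendritic cell, 7 B cell, 8 endothelial and 3 lymph node stroma genes passed in NOD.scid by limma. At an unadjusted p under 0.05 there were 2, 0, 0, 3 and 1, against 17.4% of all probe sets. Of 6 NK cell genes 1 rose, Gzmb (0.46), against 2.37% of all probe sets. The 12 T cell genes averaged 4.65 and 4.64 in BDC2.5/NOD.scid pancreas, against 4.50 and 4.56 in NOD.scid. Of 7 neutrophil genes 5 fell with the transgene in NOD.scid, with S100a8 at -2.39, against 4.03% of all probe sets. In NOD 2 fell, with S100a8 at -1.23, against 4.06% of all probe sets. Against 0.741% of all probe sets, 6 of the 7 were higher in NOD.scid than in NOD without the transgene. Their mean log2 level was 4.77 and 4.52 in BDC2.5/NOD.scid pancreas, against 5.73 and 5.72 in NOD.scid, and 4.47 and 4.40 in BDC2.5/NOD pancreas, against 4.62 and 4.73 in NOD, so that the NOD.scid pair stood above the other groups. Of 10 islet genes 4 fell with the transgene in NOD.scid and 5 in NOD, against 4.03% and 4.06% of all probe sets. Ins2, an insulin gene, fell by 1.45 in NOD.scid and by 0.73 in NOD, and Iapp, the islet amyloid peptide, by 1.37 and 0.74. Their part in the class I values was not tested either.

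**Figure D5:**
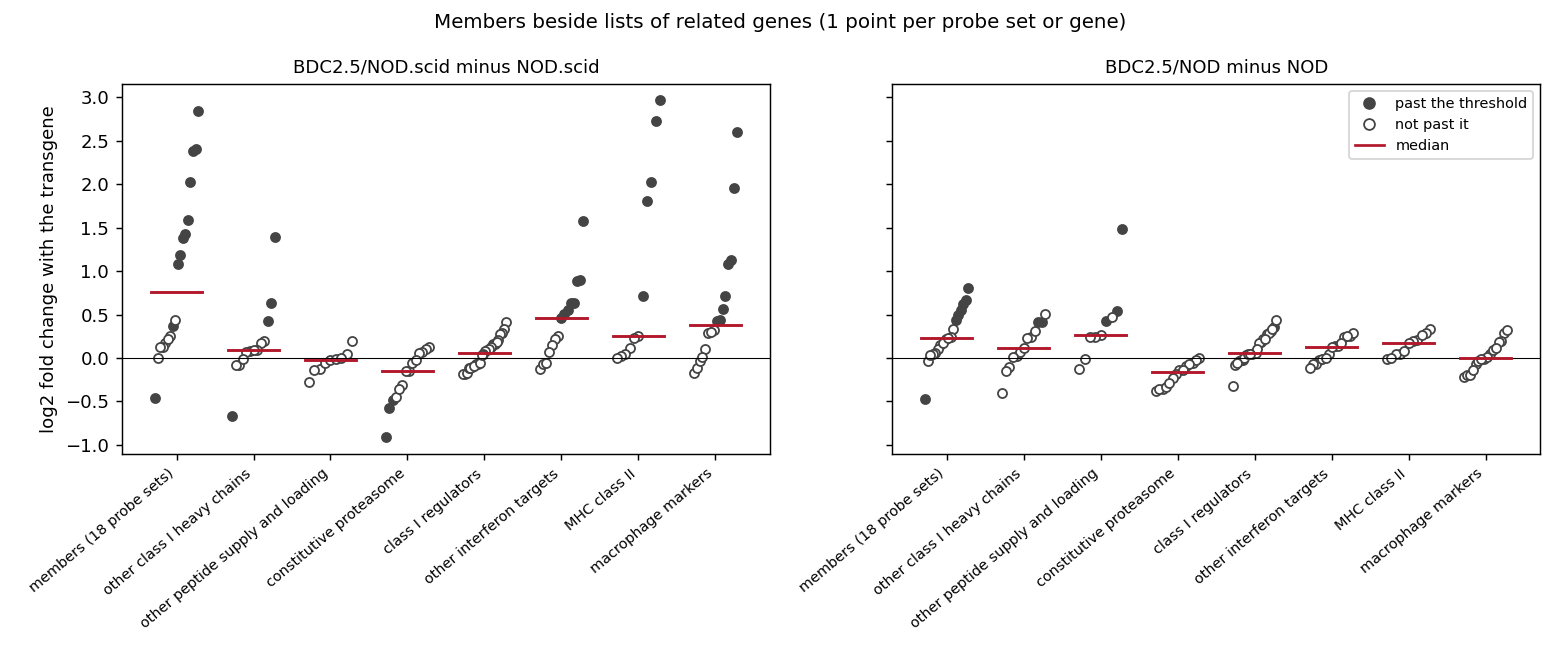
Log2 fold change with the transgene for the 18 member probe sets and for the genes of 7 related lists, in NOD.scid (left) and in NOD (right); filled points passed the threshold and red lines are medians. On the left the members' median is 0.76 with 10 points raised, beside class II genes up to 2.96 and macrophage genes up to 2.61; on the right the highest point is Pdia3 at 1.48.

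The 5 genes whose values ran most like the mean of the members over the 8 arrays, among 402 probe sets with a range of at least 1, were C1qc (Pearson r = 0.996), H2-Ab1 (0.994), Lrg1 (0.991), Ccl8 (0.989) and H2-K2 (0.989). These are descriptions, since in all of them the 2 BDC2.5/NOD.scid arrays stand apart from the other 6, and arrays of a group share their source. Lrg1, a secreted glycoprotein, read 7.85 and 7.87 in BDC2.5/NOD.scid pancreas, against 4.35 and 4.11 in NOD.scid, and 5.07 and 5.16 in BDC2.5/NOD pancreas, against 4.19 and 4.20 in NOD. It shared with H2-K1 the intermediate level of BDC2.5/NOD. H2-K2, a further class I gene, read 8.83 and 8.82 in BDC2.5/NOD.scid pancreas, against 7.27 and 7.48 in NOD.scid, on a family-shared probe set, a rise of 1.45 (adjusted p = 7.01e-07). It was not among the 13 heavy chains counted above.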

How the data were processed

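Whole-pancreas RNA of 4 groups, 2 arrays each, was measured on Affymetrix arrays. The deposited values were read as log2, since they reach at most 13.78. What normalization, background correction and software the authors used before they deposited the log2 values is stated in no source at hand. The number of arrays limits the precision. The table held 12488 probe sets, of which 66 array controls were left out. Symbols came from the platform annotation.

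Group means of all 8 arrays were fitted with limma 3.58.1 in R 4.3.3, with moderated two-sided tests, a variance trend (4 residual and 8.07 prior degrees of freedom) and Benjamini-Hochberg adjustment over 12422 probe sets at a threshold of 0.05. The script was tested on simulated data. A log2 fold change is the difference between 2 group means. Comparisons were the transgene in NOD.scid, in NOD, scid with and without the transgene, and the interaction.

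All member probe sets with 1 symbol are named. Elsewhere a gene is its brightest probe set; each list named up to 4 genes with the smallest p in NOD.scid, plus fixed regulators, and the 5 most alike genes. Other names were chosen after their values were seen, among them Slc39a7, Rps18, Pdia3, Calr, Adgre1, Irf9, H2-Q10, Psmb5 and Psmb7. Members and lists were chosen with earlier results of these data known. Alternatives covered normalization, dim probe sets, the variance trend, the arrays fitted, the actin term, averaged probe sets, the threshold and each array left out; leaving out the 3 high-actin arrays, and the number in the titles as a block, were added after seeing the data.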

Additional observations from a re-analysis of the deposited data

Results flagged for a closer look

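These results were singled out because the transgene effect in NOD.scid differed from that in NOD by the interaction term. The difference, NOD.scid effect minus NOD effect on the log2 scale, was 2.62 for B2m. It was 1.74 (93120_f_at) and 1.25 (97125_f_at) for H2-K1, and 1.77 (97540_f_at), 1.22 (97541_f_at) and 0.94 (101886_f_at) for H2-D1. Psmb8 differed by 1.37, Psmb9 by 1.14 and Tap1 by 0.97 on 103035_at. Psme1 on 101510_at differed by 0.72 (limma, adjusted p = 0.0173), through 0.25 in NOD.scid and -0.47 in NOD; of the 10 values it is the one that lost its call under alternatives (7 of them, adjusted p up to 0.129). With 2 arrays per group no single array could be tested as standing apart.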

How the results depend on the processing

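The array titles carry the number 1 or none. With that number as a replicate block, added after seeing the data, the member probe sets called were 10 in place of 11 with the transgene in NOD.scid and as many as before in the other comparisons, and the counts over all probe sets stayed within 1.5 times (647 with the transgene in NOD.scid and 411 for the interaction, for example). Deviations of arrays with the same number correlated at r of -0.32 to 0.29 between groups, so the numbers were not taken to pair the arrays. No member value reversed its direction while called. Under all alternatives 9 of 11 called member probe sets kept their call with the transgene in NOD.scid, 1 of 7 (H2-K1 on 93120_f_at) in NOD, 10 of 11 for scid with the transgene and 9 of 10 for the interaction. The count in NOD, 7, was 1 to 7 when single arrays were left out. For scid without the transgene the count of 0 became 3 with the actin term, 3 without the high-actin arrays, and 0 to 1 when single arrays were left out. With the probe sets of a gene averaged, Tap1 rose by 0.63 in NOD.scid, and 3 genes in place of 5 passed in NOD. Centring the arrays changed the share of higher calls in NOD to 38.9% of all calls from 49.1%. Counts over all probe sets moved more. With the transgene in NOD.scid 795 became 455 with the 2 groups alone, 1315 with the actin term, 1418 without the high-actin arrays, 432 at a threshold of 0.01, 445 without BDC2.5/NOD.scid replicate 2 and 521 without NOD.scid replicate 1. In NOD 990 became 1521, 1507, 2179 and 419 in the same 4 settings, 279 and 323 without BDC2.5/NOD replicates 1 and 2, and 479 without NOD replicate 1. For scid without the transgene 292 became 143, 739, 1489 and 109, and 71 to 159 without either BDC2.5/NOD or NOD array or NOD.scid replicate 2. For scid with the transgene 1037 became 2138 without the high-actin arrays, 484 at 0.01, and 329 to 635 without either BDC2.5/NOD array or BDC2.5/NOD.scid replicate 2. For the interaction 586 became 1042 with the actin term, 1621 without the high-actin arrays, 229 at 0.01, and 195 to 346 without either BDC2.5/NOD array or NOD replicate 1. The causes were not tested, beyond the fewer arrays in such fits. With 2 arrays per group, leaving 1 out assumes that the lone array varies like the other groups.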
